A study of Mus musculus with 5 samples.

Results

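Circular RNAs with no host gene are the rows of the deposited circRNA table whose gene symbol field is a dash or empty. They numbered 1598 of 11957 circRNAs, and the other 10359 carried a host gene symbol. The table lists circles found in testis of male C57/BL6J mice, labelled as 10 weeks old. The triptolide libraries came from mice given triptolide, a diterpenoid of the vine Tripterygium wilfordii, through the stomach at a daily 50 µg/kg, and the control libraries from mice fed saline. Testes were taken at 35 days, from groups that the labels give as 6 mice each. The table holds 2 control libraries and 3 triptolide libraries, and the labels do not say whether a library is 1 mouse or a pool. The p-values below therefore measure the spread between these libraries, which may be partly technical.

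A circular RNA forms when the splicing machinery joins the end of an exon to the start of the same or an earlier exon, a reaction called back-splicing. The closed ring has no free ends for exonucleases, and testis is among the tissues rich in such molecules. A host gene is assigned when the back-splice junction falls in an annotated gene, so a circle without one can lie between genes, join different genes, come from an unannotated transcript, or sit in a gene that the annotation used did not match. Among the loci without a host gene here was a cluster of microRNA genes on chromosome X. These X-linked microRNAs belong to a group known from testis, and a microRNA pairs with its targets mainly through a seed of a few bases near its 5′ end.

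The most abundant circle with no host gene and a longer one beginning at the same position lie in that cluster. The longer circle, chrX:66792833-66810290, encloses 5 hairpins, Mir741, Mir463, Mir880, Mir878 and Mir881. The mature sequences of these 5 are shown because they are the known RNA products inside the span of the circle; the mature microRNAs themselves were not measured here. They are written 5′ to 3′ as given by RefSeq for GRCm38.p6, with the seed (bases 2 to 8) in capitals.
mmu-miR-741-3p: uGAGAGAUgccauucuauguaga
mmu-miR-741-5p: uACGUAGAuugguaccuaucaug
mmu-miR-463-3p: uGAUAGACaccauauaagguag
mmu-miR-463-5p: uACCUAAUuuguuguccaucau
mmu-miR-880-3p: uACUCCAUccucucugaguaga
mmu-miR-880-5p: uACUCAGAuugauaugaguca
mmu-miR-878-3p: gCAUGACAccacacuggguaga
mmu-miR-878-5p: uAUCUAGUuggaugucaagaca
mmu-miR-881-3p: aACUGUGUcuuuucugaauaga
mmu-miR-881-5p: cAGAGAGAuaacagucacaucu
The 10 mature sequences had 10 distinct seeds, and no other of the 1679 mature microRNAs in the RefSeq table carried any of them. RefSeq places all 5 genes on the minus strand, while the circRNA names give no strand.

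Levels are given in SRPBM, spliced reads across the back-splice junction relative to all mapped reads, which the table gives as whole numbers. A single read was worth 8.25 to 9.53 SRPBM depending on the library, and the smallest value above 0 was 2 reads. The libraries held 32821 to 44339 junction reads in all, of which 2718 to 4060 belonged to circles with no host gene. A single circle thus rested on few reads, with a median of 3 reads in 4 libraries and 4 in control 1. A circle without a value is called listed at 0, since the sources used here do not say what a 0 stands for.

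Control 1 stood apart from the other libraries in its zeros. Among circles with at least 80 SRPBM in 4 libraries and a 0 in the fifth, 5 of 6 without a host gene had that 0 in control 1, as had 72 of 77 with a host gene. The zero of the other circle was in triptolide A. One of the 5, chr1:137390312-137406693 in no gene, was at 0 and 99 SRPBM in the controls and 86, 124 and 156 in triptolide. The others are named below with their values, and values without control 1 are given beside the results it moved most. As a check of the tissue, 15 of 18 germ cell marker genes hosted circles in the same table, with a summed level of 7015 to 10236 SRPBM per library (8995 and 10236 in control, 7843, 9909 and 7015 in triptolide). For Leydig cells 1 of 6 markers hosted any (Lhcgr, 0 to 57 SRPBM), for immune cells 1 of 5 (Adgre1, 0 to 43). None of the markers of Sertoli cells, smooth muscle, endothelium, epididymis or red blood cells hosted a circle.

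The X-linked circle chrX:66792833-66796572 spans 3740 bases between Mir471 and Mir741 and encloses no annotated gene. Its level was 897 and 1160 SRPBM in the controls and 1348, 1443 and 1071 in triptolide. It was the highest of the set by mean, 1184 SRPBM, and made up 3.21% to 5.23% of all signal without a host gene in a library. The groups overlapped, since triptolide C lay below control 2. The log2 fold change was 0.32 ± 0.28 (SE; adjusted p = 0.79, limma), and 0.14 without control 1 or 0.50 without control 2. The 17458-base circle from the same start was at 0 and 306 SRPBM in the controls and 363, 256 and 104 in triptolide, and is among those listed at 0 in control 1. Another circle from that start, chrX:66792833-66799601, encloses Mir741 and Mir463 and was at 24 SRPBM in control 2, 26 in triptolide B and 0 elsewhere. Within the cluster the shortest circle was thus the highest in all 5 libraries. In all, 9 circles with no host gene enclosed 15 hairpin genes, and 7 of the 9 were above 0 in 1 library.

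**Figure D1:**
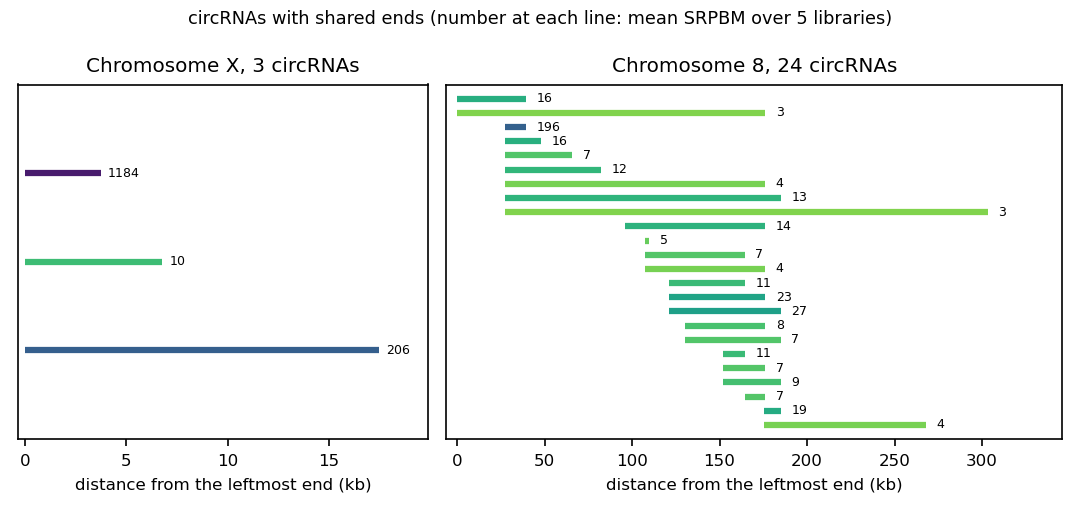
Circles drawn as lines from their first to their last base, at the distance in kb from the leftmost end, for the 3 X-linked circles (left) and the cluster of 24 circles on chromosome 8 (right). Colour darkens with the mean level, and the number is the mean SRPBM over 5 libraries: 1 circle dominates each panel, at 1184 on chromosome X and 196 on chromosome 8.

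As a set, circles without a host gene were longer than hosted circles and more often listed in 1 library. Their genomic span, introns included, had a median of 22614 bases and ran from 218 to 495267, against a median of 15482 for circles with a host gene. Of the 1598, 62 (3.88%) spanned under 1 kb and 144 (9.01%) over 100 kb, against 4.48% and 3.52% of hosted circles. Among circles listed in a library, the median span was 21976 and 24974 bases in the controls and 20243, 21686 and 20870 in triptolide. The corresponding medians for hosted circles were 15978, 16658, 16060, 15583 and 16425. The set without a host gene was longer in 5 of 5 libraries, by 5809 ± 1652 bases (SD, n = 5; two-sided exact sign-flip permutation p = 0.062, the smallest that 5 libraries allow, 0.0833 after Benjamini-Hochberg adjustment over 4 such measures). With circles of 100 kb or less alone the difference was 3309 bases. A host is named by position, and few hosted circles crossed the bounds of a gene, as given below. Span therefore enters the making of the sets, and the p-values for span given here do not separate it from that. Circles over 50 kb made up 21.5% to 26.4% of the listed circles without a host gene and 12.3% to 14.3% of those with one. The difference was 9.73 ± 1.49 percentage points (SD, n = 5; exact sign-flip p = 0.062, 0.0833 after adjustment), a measure added after the values were seen. The 2 shortest, chr5:62226563-62226780 of 218 bases and chr13:106641242-106641487 of 246 bases, lie in no gene and reached 38 and 28 SRPBM in their highest library. The 2 longest, chr5:15032800-15528066 and the 493279-base chr1:46276961-46770239, each join different genes and reached 26 and 17 SRPBM.

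Of the 1598 circles, 995 (62.3%) were above 0 in 1 library, 254 in 2, 127 in 3, 116 in 4 and 106 (6.63%) in all 5. For hosted circles, 53.1% were above 0 in 1 library and 12.5% in all 5. The 106 circles found everywhere carried 43.5% of the signal of the set, and the 995 found once carried 18.2%. The smallest listed value, 2 reads, was held by 22% to 35.2% of circles without a host gene and 19.8% to 28.2% of hosted ones. The difference was 4.55 ± 1.85 points (SD, n = 5; exact sign-flip p = 0.062, 0.0833 after adjustment), a measure added after the values were seen. The median listed level was 24 to 35 SRPBM in the set and 33 to 38 for hosted circles. It was lower in the set in 4 of 5 libraries and equal in control 1, at 35 SRPBM each (mean difference -7.2 ± 4.09 SRPBM, SD, n = 5; exact p = 0.125, 0.125 after adjustment). The libraries share many circles, so the 5 differences are not fully independent.

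**Figure D2:**
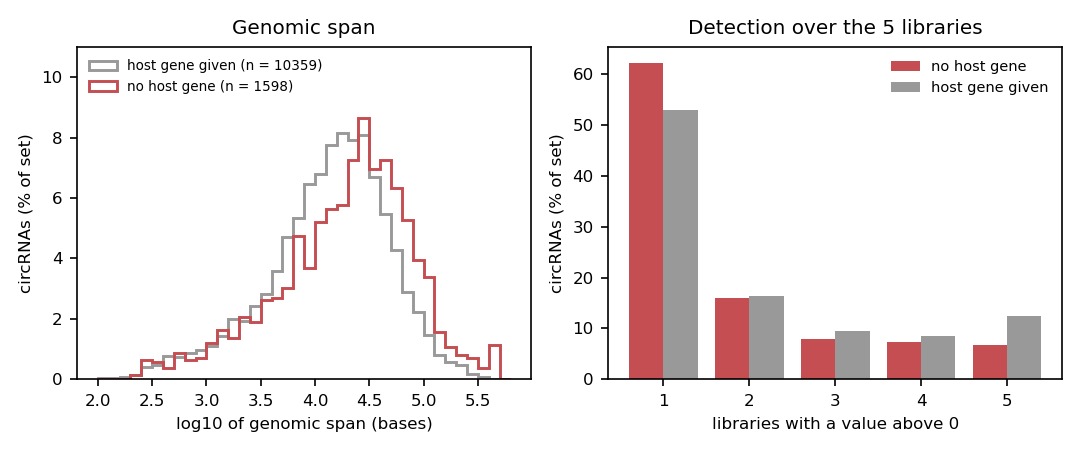
Left, the share of circles in each bin of genomic span, on a log10 axis, for 1598 circles with no host gene (red) and 10359 with one (grey). Right, the share of each set by the number of libraries with a value above 0: 62.3% of circles without a host gene were in 1 library and 6.63% in all 5, against 53.1% and 12.5% of hosted circles.

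The positions of the 1598 circles were compared with the RefSeq gene table for GRCm38.p6, which served for names and neighbours only. Despite the missing symbol, 697 circles (43.6%) lay wholly inside at least 1 RefSeq gene. Another 382 had 1 end in a gene, 155 had their ends in different genes, 76 enclosed a gene with both ends outside, and 288 (18%) touched no gene. Of the hosted circles 99.3% lay inside a gene. Circles that touch no gene were the shortest of these classes, with a median span of 10713 bases, below the 15482 of hosted circles. Those joining different genes were the longest, at 62400 bases. The circles inside a gene had a median of 19808 bases, nearer to that of hosted circles than the median of the whole set. Of hosted circles, 0.125% had their ends in different genes and 0.348% had 1 end in a gene. The 697 inside a gene held 44.2% to 47.2% of the set's signal in a library and the 288 in no gene held 16.2% to 20.2%. Of the 697, 516 were in protein-coding genes, 168 in lncRNA genes and 13 in others. For 350 of them the gene hosted no other circle of the table, and for 347 it did. Genes were matched to hosts by symbol. Of the 10359 hosted circles, 9796 had a host symbol in the RefSeq table, so a host under another name would be missed. Of the 1598, 10 carried an Ensembl ID without a symbol, for 8 distinct genes, and all 8 had a symbol in the name table used here. One of these, chr3:55058275-55063836 in 4931419H13Rik, was at 105 and 41 SRPBM in the controls and 0, 115 and 0 in triptolide.

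**Figure D3:**
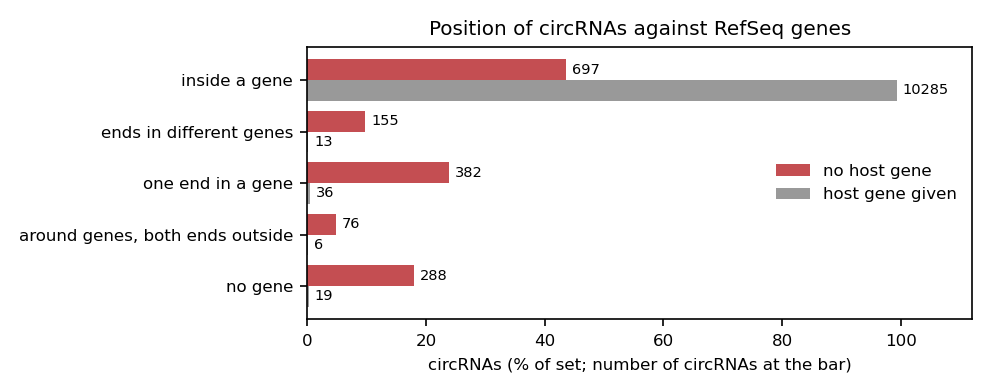
Percentage of circles in each position class against RefSeq genes, with the number of circles beside each bar, for circles with no host gene (red) and with one (grey). Of circles without a host gene 697 lie inside a gene and 288 in none, while 10285 of the hosted circles lie inside a gene.

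The genes with the most such circles inside them were A26c3 with 17, Ankrd31 with 15, and Dnah14, Gm272 and Poteg with 12 each. None of these 5 genes was named, under this symbol, as the host of any circle in the table. A26c3 and Poteg belong to the POTE family of ankyrin repeat genes, and the placement of reads among its members was not tested. Ankrd31 encodes a meiotic protein with a role in the DNA breaks that start recombination between chromosomes. Its 15 circles summed to 493 to 801 SRPBM per library, and 4 were above 0 in all 5. The highest of them, chr13:96851656-96879123, was at 167 and 290 SRPBM in the controls and 296, 283 and 165 in triptolide, so that the groups overlapped (log2 fold change 0.12 ± 0.40, SE; adjusted p = 0.99, limma). Without control 1 the log2 fold change was -0.25.

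Of 4 gene lists of different length, the axoneme list, for the core of the sperm tail, was touched by 28 circles at 5 genes. These were Cfap20 and the dynein heavy chain genes Dnah14, Dnah7a, Dnah7b and Dnah7c, which encode motor proteins. Their summed level was 866 and 1138 SRPBM in the controls and 1235, 1288 and 944 in triptolide, so that the groups overlapped. That sum includes a Dnah7a circle, described below, which was at 0 in control 1 and from 400 to 522 SRPBM in every other library. The median log2 fold change of the 12 tested was -0.01, against -0.06 over all circles tested, and 0 of 12 passed the test. Of the meiosis list, which does not hold Ankrd31, 2 circles touched Hormad1 and Smc1b and neither was tested. No circle touched a gene of the piRNA pathway list or of a list of genes known to regulate circle formation.

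The Dnah7a circle chr1:53617725-53623729, of 6005 bases, was at 0 and 513 SRPBM in the controls and 478, 522 and 400 in triptolide. The 4 libraries with a value lay close together, and control 1 alone was at 0. Its log2 fold change was 2.38 ± 1.21 (SE; adjusted p = 0.68, limma) with all libraries and -0.14 without control 1. It lies inside Dnah7a and shares an end with a hosted circle whose named host is Dnah7a. On the same chromosome, 11 circles joined Dnah7b to Dnah7c. The highest, chr1:46078523-46482056, spans 403534 bases and was at 307 and 190 SRPBM in the controls and 162, 239 and 165 in triptolide. The triptolide values overlapped those of control (log2 fold change -0.35 ± 0.37, SE; adjusted p = 0.89, limma), with a log2 fold change of -0.03 without control 1.

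Of the 155 circles with ends in different genes, 42 joined genes whose names share their letters, such as members of 1 family. They spanned a median of 87010 bases, against 52410 for the other 113, and 4 of the 42 and 3 of the 113 were above 0 in all 5 libraries. Besides Dnah7b and Dnah7c, such pairs were Catspere1 and Catspere2 (4 circles), parts of a sperm calcium channel, and Adam5 and Adam32 (3 circles), of a family of sperm surface proteins. Whether reads were placed at the right family member was not tested, so joins within a family are uncertain. A circle joining Hsd3b2 to Hsd3b6, chr3:98716416-98807929, was at 404 SRPBM in control 1 and 0 in the other 4 libraries. Another, from Hsd3b3 to Hsd3b6 (chr3:98753311-98807929), was at 157 SRPBM in control 2 and 0 in the other 4. Both were named after their values were seen. These genes encode 3-beta-hydroxysteroid dehydrogenases, enzymes of steroid hormone synthesis, and their circles were each found in 1 library.

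Many circles shared an end with another. Of the 1598, 854 (53.4%) fell into 234 clusters linked by identical start or end positions, and 744 stood alone. With ends allowed to differ by 5 bases, 856 were in clusters. Of hosted circles, 7090 (68.4%) were in such clusters. There were 116 pairs and 10 clusters of 10 or more. A shared end here means the same coordinate on 1 side. The circle names give no strand, and whether the coordinate is a splice site was not tested.

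The largest cluster held 24 circles over 303235 bases of chromosome 8 (chr8:128759785-129063019), beside and across Ccdc7a. They used 9 distinct starts and 10 distinct ends, and 8 circles shared 1 end. A single circle in no gene, chr8:128787291-128799220, held 45.4% of the cluster's signal. It was at 211 and 165 SRPBM in the controls and 191, 177 and 235 in triptolide, which made it 1 of the 3 most even circles above 0 in every library (highest over lowest, 1.42). The next highest were chr8:128881039-128944653, at 43, 58, 0, 0 and 34 SRPBM in control 1, control 2 and triptolide A, B and C, and chr8:128881039-128935770, at 0, 49, 47, 0 and 17. Of the 24 circles, 12 were above 0 in 1 library.

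The second cluster, 21 circles around Izumo3 on chromosome 4, had 5 circles sharing 1 end. Izumo3 belongs to a family of sperm proteins that includes the sperm-egg fusion protein Izumo1. Its highest circle, chr4:92107057-92134944 in no gene, was at 43 and 91 SRPBM in the controls and 28, 106 and 69 in triptolide. A circle that encloses Izumo3 itself, chr4:92125264-92187418, was at 26 and 24 SRPBM in the controls and 19, 35 and 60 in triptolide. The next, chr4:92241751-92266255, was at 26 and 24 SRPBM in control, and at 38, 70 and 0 in triptolide. The groups overlapped for all 3 circles.

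The third cluster, 20 circles at the gene model Gm32828 on chromosome 12, had 8 circles sharing 1 end. Its highest circle was chr12:7755394-7756212, of 819 bases, at 158 and 82 SRPBM in the controls and 0, 132 and 148 in triptolide. That is the circle whose single 0 was in triptolide A. From the same end, chr12:7743483-7756212 was at 35 and 49 in the controls and 57, 79 and 26 SRPBM in triptolide. The 67350-base chr12:7688863-7756212 was at 43 and 66 in the controls and 47, 44 and 43 SRPBM in triptolide, and was also among the 3 most even (ratio 1.53). By mean level the shortest circle was the highest of this cluster, as in the X-linked locus.

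The fourth cluster, 14 circles at Gm45919 on chromosome 16, had 9 circles from 1 start. The highest, chr16:12671249-12684206, was at 0 and 240 SRPBM in the controls and 200, 256 and 200 in triptolide, and is another of the circles at 0 in control 1. A longer circle from that start, chr16:12671249-12685720, was at 140 and 99 SRPBM in the controls and 38, 35 and 69 in triptolide. These groups did not overlap, and its log2 fold change was -1.12 ± 0.48 (SE; adjusted p = 0.68, limma). The next, chr16:12671249-12691016, was at 184 and 49 SRPBM in the controls and 0, 62 and 26 in triptolide. The libraries thus differed in which circle from the shared start was listed.

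An end was shared with a hosted circle by 353 circles (22.1%), and both ends by 40. For 22 of the 40 the hosted circles at both ends had a host in common, and for 18 the hosts differed. Among the most abundant of the 353 was chr16:14510735-14589391, with 1 end in A630010A05Rik. It was at 228 and 223 SRPBM in the controls and 239, 345 and 209 in triptolide. A circle from Alms1, a gene of the centrosome and cilium base, to a position beyond Nat8f7, the pseudogene Alms1-ps1 and Nat8f3 (chr6:85641319-85774489) was at 307 and 248 SRPBM in the controls and 143, 177 and 165 in triptolide. All 3 triptolide libraries lay below both controls, and the log2 fold change was -0.72 ± 0.33 (SE; adjusted p = 0.68, limma). The circle chr11:5660643-5689349 in Ankrd36 was at 0 and 207 SRPBM in the controls and 191, 221 and 252 in triptolide, the 0 again being in control 1.

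The 10 most abundant circles made up 14.4% to 17.5% of the set's signal per library. The second, chr14:7739459-7751583 with 1 end in Gm10044, was at 1046 and 911 SRPBM in the controls and 688, 885 and 418 in triptolide. All triptolide libraries lay below the controls (log2 fold change -0.61 ± 0.35, SE; adjusted p = 0.68, limma), with a log2 fold change of -0.32 without triptolide C. It held 73.3% of the signal of its cluster of 11, whose sum was 1334 and 1239 in the controls and 1011, 1254 and 548 SRPBM in triptolide, so that the sums overlapped. The third, chr13:49784071-49787857 in Gm272, was at 439 and 430 SRPBM in the controls and 382, 460 and 627 in triptolide. Control values lay inside the triptolide range. The circle chr14:106151690-106159235, in no gene, was at 492 and 306 SRPBM in the controls and 296, 256 and 304 in triptolide, all 3 below both controls (log2 fold change -0.43 ± 0.32, SE; adjusted p = 0.72, limma), and the log2 fold change was -0.10 without control 1 and -0.76 without control 2. The circle chr16:44028679-44040158 in Gramd1c, a gene of cholesterol transport, was at 167 and 232 SRPBM in the controls and 267, 398 and 121 in triptolide.

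**Figure D4:**
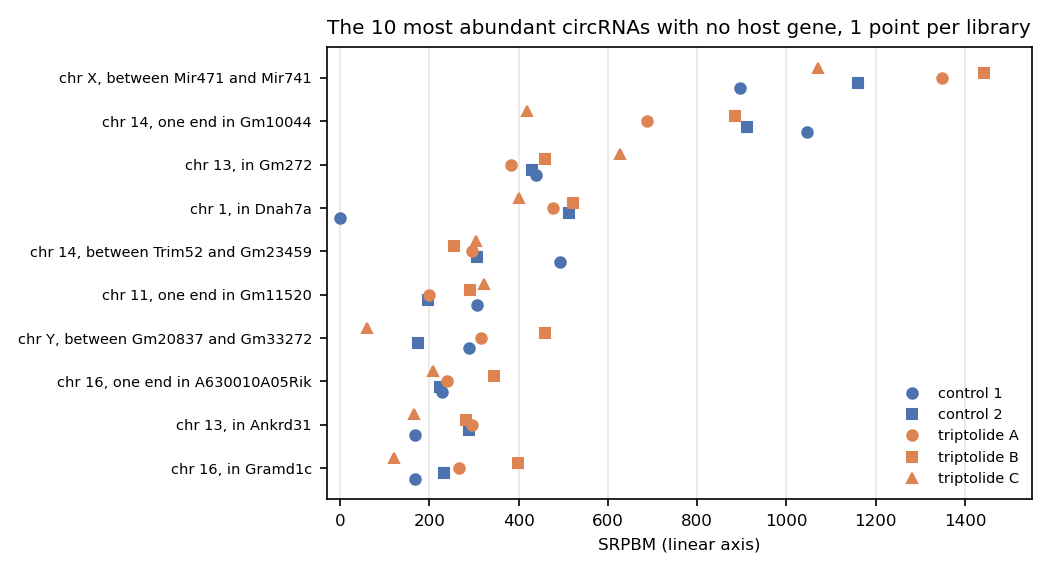
Level in SRPBM (linear axis) of the 10 most abundant circles with no host gene, 1 point for each of 2 control (blue) and 3 triptolide (orange) libraries; the label gives the gene the circle lies in, has 1 end in, or lies between. The X-linked circle reaches from 897 to 1443 SRPBM, and the Dnah7a circle is at 0 in control 1 alone.

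Spread between libraries was uneven among circles above 0 in all 5. The most even was chr11:56406668-56416658 in Gm32500, at 167 and 140 SRPBM in the controls and 133, 186 and 156 in triptolide (highest over lowest, 1.4). The most uneven was chr14:81275310-81391111, around Cyp2c73-ps, at 149 and 16 SRPBM in the controls and 38, 44 and 26 in triptolide (9.31). The circle chr10:82383763-82405166 in no gene ranged from 17 SRPBM in control 1 to 139 in triptolide C. The circle chr6:7279943-7294021 in no gene ranged from 26 in control 1 to 200 SRPBM in triptolide A.

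Chromosome Y held 2 of the 1598 circles, and the mitochondrial genome none. The circle chrY:2662530-2663761, of 1232 bases, has 1 end in Sry, the testis-determining gene, whose circular transcript in adult mouse testis is a long-known circular RNA. It was at 0 in both controls and triptolide A, 44 SRPBM in triptolide B and 34 in triptolide C (adjusted p = 0.68, limma). Those values are a few reads each, and no value below 2 reads is listed, so a level lower than that would not show. What the 0 of the other libraries stands for is not stated in the sources used here. The other, chrY:90739142-90793417, encloses Mid1-ps1 and was at 290 and 174 SRPBM in the controls and 315, 460 and 60 in triptolide. The triptolide libraries lay both above and below the controls. Its log2 fold change of -0.08 ± 0.73 (SE; adjusted p = 0.99, limma) became 0.27 without control 1.

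As a whole, the set did not separate the groups. Circles without a host gene made up 8.25% ± 0.353 of the summed signal in control (SD, n = 2; 8% and 8.5%) and 8.46% ± 0.599 in triptolide (SD, n = 3; 8.27%, 9.13% and 7.98%). The difference of 0.214 percentage points was smaller than the spread (two-sided exact permutation p = 0.9, smallest possible 0.1), and it was -0.0359 without control 1 and -0.122 without triptolide B. The number listed was 482 and 652 in the controls and 526, 706 and 512 in triptolide (567 ± 120.2 against 581.3 ± 108.2; exact permutation p = 0.9), and without control 1 the difference went from 14.3 to -70.7. Numbers listed were lowest in control 1, and 2 triptolide libraries lay between the controls. The median listed level was 35 and 24 SRPBM in the controls and 28, 26 and 26 in triptolide (exact permutation p = 0.8), a difference of -2.83 SRPBM that was 2.67 without control 1. After Benjamini-Hochberg adjustment over these 3 measures each p was 0.9.

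Circle by circle, 603 of the 1598 were above 0 in at least 2 libraries and entered the limma fit over all 5457 such circles. The other 995 were not tested. None of the 603 passed an adjusted p of 0.05, as none did of all 5457 (0% called). At an unadjusted p under 0.05, 8 were higher in triptolide (1.33%, against 1.8% of all tested) and 29 lower (4.81%, against 4.8%). On junction reads recovered from the values, edgeR and DESeq2 each called 0, with 13 and 5 circles at an unadjusted p under 0.05 (2.16% and 0.829%, against 2.36% and 0.605% of all). Groups did not overlap for 38 circles higher in triptolide (6.3%, against 6.78% of all tested) and 70 lower (11.6%, against 10.5%). These shares lay near those of all circles tested. The median log2 fold change was -0.03 for the 603 and -0.06 for all, on the log2(SRPBM + 16) scale, which understates changes of low circles. Of the circles above 0 in all 5 libraries, 0 of 106 passed (0.0712% of all such circles), and with no filter 1 of 1598 passed, the Dnah7a circle (0.301% of all). Without control 1, 0 of 520 passed (0.0421% of all tested). Without control 2, which leaves control 1 as the lone control, 7 of 494 passed (2.85% of all), and 6 of these 7 were at 0 in control 1, including the 5 named above.

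**Figure D5:**
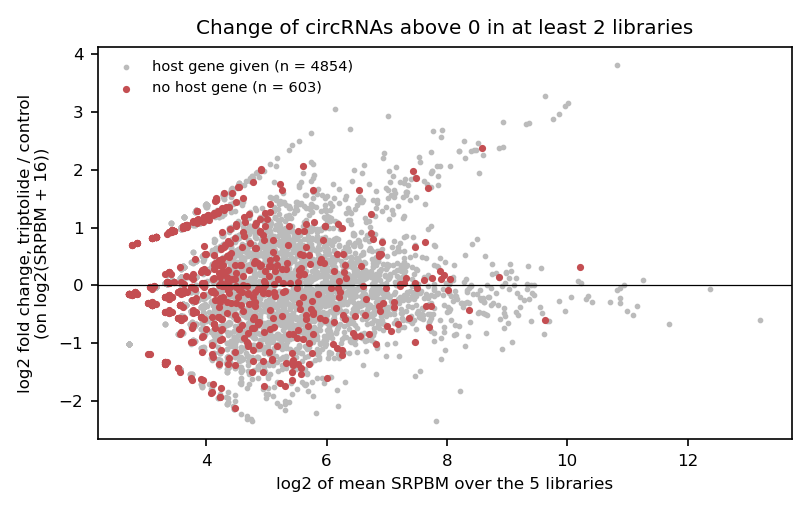
Log2 fold change of triptolide over control against the log2 of mean SRPBM, for 603 circles with no host gene (red) and 4854 with one (grey), each above 0 in at least 2 libraries. The median is -0.03 in the set and no point passed an adjusted p of 0.05; the streaks at low levels are circles with the same few reads.

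The 6 circles of smallest p among those higher in triptolide had an adjusted p of 0.68 each (limma). All were at 0 in both controls except chr19:16085050-16090192 in Gm32026, at 0 and 16 SRPBM in the controls and 28, 70 and 78 in triptolide. A circle joining Ephx4 to Lpcat2b, chr5:107429792-107432386, was at 47, 35 and 69 SRPBM in triptolide. A circle in Ankrd31, chr13:96795739-96804263, was at 28, 70 and 52 SRPBM in triptolide. The groups did not overlap for these 3 circles, which had been chosen by p. The remaining 3 lay in Abca17 (chr17:24326356-24337830), Asap1 (chr15:64217167-64218855) and Zfhx3 (chr8:108674242-108682562), with triptolide values from 17 to 53, 19 to 52 and 26 to 38 SRPBM. No fold change is given for circles listed at 0 in a whole group.

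The 6 of smallest p among those lower in triptolide (adjusted p = 0.68 each, limma) were at 0 in all 3 triptolide libraries. The circle chr13:44288500-44289744 in no gene was at 70 and 41 SRPBM in control. The circle chr6:29333998-29336058 with 1 end in Fam71f1 was at 43 and 41 SRPBM in control. The others were chr14:44535035-44561944 at Gm5624, chr7:41680253-41694052 in Vmn2r-ps54, chr1:88989403-88991778 in Gm34194 and chr12:43942195-44057210 around Gm46349, with control values from 33 to 61 SRPBM. In all, 25 of the 1598 circles (1.56%) were above 0 in both controls and no triptolide library, against 207 of all 11957 (1.73%). In the other direction, 13 (0.814%) were above 0 in all triptolide libraries and no control, against 122 (1.02%).

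Finally, the circles were placed on the loci of the deposited lncRNA table, which lists assembled long non-coding transcripts. Of the 1598, 402 (25.2%) lay inside such a locus, at 206 loci, of which 133 were intergenic. Of hosted circles, 372 (3.59%) lay inside one. Among these 402, 94 touched no RefSeq gene. The most abundant, after the Gm272 circle described above, was chr11:95319177-95332369 with 1 end in Gm11520, at 307 and 198 SRPBM in the controls and 200, 292 and 322 in triptolide. In Gm31466, chr3:20423039-20456551 was at 334 and 182 SRPBM in the controls and 172, 132 and 69 in triptolide. All triptolide libraries lay below the controls (log2 fold change -0.98 ± 0.47, SE; adjusted p = 0.68, limma), with a log2 fold change of -0.57 without control 1. From the same start, chr3:20423039-20437559 was at 246 and 116 SRPBM in the controls and 181, 177 and 165 in triptolide, overlapping. In Gm45086, chr7:48724380-48726822 was at 114 and 140 SRPBM in the controls and 258, 168 and 209 in triptolide, all above the controls (log2 fold change 0.66 ± 0.36, SE; adjusted p = 0.68, limma).

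Of the 206 loci, 172 had enough counts to be tested, and 7 rose (4.07%, against 5.01% of all 6888 lncRNA loci tested) and 2 fell (1.16%, against 2.26%; edgeR's quasi-likelihood test, adjusted p of 0.05). The count was 1 without triptolide P, 4 without triptolide 3 and 15 without triptolide Q. The shares of all lncRNA loci that passed in those fits are not given here, so these counts cannot be set against them. The locus at Gm20557 on chromosome 3 passed with every library left out in turn. It was at 50.6 and 80.2 CPM (counts scaled to the library total) in control and 177.9, 131.7 and 173.7 in triptolide (log2 fold change 1.29 ± 0.25, SE; adjusted p = 0.0015, edgeR). Its 1 circle, chr3:49308978-49337112, was at 19 SRPBM in triptolide A and 0 in the others. The locus across from Impad1 on chromosome 4 averaged 136.6 ± 14.9 CPM in control (SD, n = 2) and rose to 225.4 ± 42.4 in triptolide (SD, n = 3; adjusted p = 0.035, edgeR). It lost the call in 4 of 5 fits that left out a library, all but that without triptolide Q (adjusted p up to 0.16, edgeR), and with DESeq2 (adjusted p = 0.056). It held 5 circles, which summed to 43 and 57 SRPBM in the controls and 113, 183 and 60 in triptolide. The 57 of control 2 and the 60 of triptolide C lay less than 1 read apart (8.25 and 8.67 SRPBM per read). That locus is antisense to Impad1, and because the use of strand in counting is not stated, reads of Impad1 itself may be included. The locus at 4921515E04Rik on chromosome 15 fell from 113.8 ± 7.7 to 58 ± 15.6 CPM (adjusted p = 0.015, edgeR), but did not pass without control 1, triptolide P or triptolide 3 (adjusted p up to 0.082, edgeR). Its 2 circles were above 0 in control 2 alone, at 49 SRPBM together. At the other 6 loci that passed, the circles were above 0 in 1 or 2 libraries. The locus at Gm37712 and 2900092O11Rik on chromosome 1 rose, and its 1 circle was at 16 SRPBM in control 2 and 0 elsewhere. A locus without a gene ID, XLOC_196012 on chromosome 9, fell, and its 1 circle was at 26 SRPBM in triptolide C and 0 elsewhere. The locus antisense to Slc16a4 on chromosome 3 rose, and its 2 circles summed to 57 SRPBM in control 2, 17 in triptolide B and 0 elsewhere. The locus at 1700026F02Rik on chromosome 8 rose, and its 1 circle was at 35 SRPBM in control 1, 53 in triptolide B and 0 elsewhere. The other 2 loci that rose, at Gm11922 on chromosome 4 and XLOC_187924 on chromosome 9, had circles at 0 in both controls, which summed to 52 and 34 SRPBM in triptolide B and C at the first and 17 in triptolide C at the second. Each of these 6 loci lost its call without control 1 and without triptolide P.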

How the data were processed

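The circRNA table deposited by the authors holds a score per circle and library, SRPBM by its name, as rounded whole numbers. The lncRNA table holds expected counts deposited by the authors, per the file headers, and its 5 FPKM columns were not used. The submitters' processing notes list bedtools 2.17.0, DESeq, HISAT2 2.0.1 and HTSeq 0.6.1, with roles not given in the sources used here. Those notes name hg19, but the coordinates are mouse: of 9796 hosted circles whose host is in the RefSeq table for GRCm38.p6, 9708 (99.1%) lay inside it. Coordinates are printed as deposited, and no genome of the build was used here.

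Columns were matched to libraries by header. The header triptolide_1 stands over all 3 triptolide columns of the circRNA table, here called A, B and C. The header of replicate 2 stands over 2 lncRNA columns, here called P and Q. The letters of the 2 tables do not match.

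SRPBM was divided by the worth of 1 read per library to recover reads, and 97.1% to 98.1% of values above 0 came within 0.1 of a whole read (100% up to 20 reads). Those reads served edgeR and DESeq2 as alternatives. The main test of circles was limma 3.58.1 with a mean trend, on log2(SRPBM + 16) and on circles above 0 in at least 2 libraries, adjusted over all circles by Benjamini-Hochberg with a threshold of 0.05. Values per library were compared between groups by exact permutation (two-sided, 10 assignments), and sets within libraries by exact sign-flip permutation over 5 differences. Expected counts were rounded, summed per locus and tested with edgeR 4.0.16 (quasi-likelihood, TMM, filterByExpr), an analysis added after the values were seen. DESeq2 1.42.0, R 4.3.3 and Python 3.11.15 were used. The limma script was tested on simulated data.

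The circles, gene lists and tests were chosen with earlier results of these data known. Circles were named by rule: the 10 highest by mean, the 6 smallest p per direction, the 3 highest in each of the 4 largest clusters, the 2 shortest and 2 longest, the 6 highest inside an lncRNA locus, the 3 most even and 3 most uneven, those on chromosome Y, and the 5 highest sharing an end with a hosted circle. The microRNA circles, the Hsd3b circles, those at 0 in control 1, those with a gene ID and those in lncRNA loci that passed were named after their values were seen. The shares of circles over 50 kb and at the smallest listed value were also added then.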

Additional observations from a re-analysis of the deposited data

How the results depend on the processing

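No paired analysis was possible between the groups by replicate number, because the triptolide columns of the circRNA table carry no number of their own. The labels also do not say whether control and triptolide libraries of the same number were matched. With each library left out in turn, the difference in signal share ran from -0.122 to 0.463 percentage points (-0.0359 without control 1), that in number listed from -70.7 to 99.3 (-48 without triptolide B), and that in median level from -8.33 to 2.67 SRPBM. Counting circles with at least 4 reads, the number listed differed by -26.2. Circles that passed ranged from 0 to 7 with a library left out, and 1 (the Dnah7a circle) passed with no filter. Circles touching an lncRNA locus by any overlap of 1 base numbered 811, against 402 inside. Of the lncRNA loci holding a circle, 1 to 15 passed with a triptolide library left out and 5 with DESeq2 (alternatives chosen after seeing the data), against 9. The shares of all lncRNA loci that passed in these alternatives are not given here.

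Among 400 alternative values for 31 named circles, 380 kept direction and side of the threshold. Another 4 newly passed, for the 3 circles at 0 in control 1 in Dnah7a, Gm45919 and Ankrd36, and 16 reversed, at 9 circles. The chromosome Y circle around Mid1-ps1 was at 0.27 with edgeR and with DESeq2, and the 14521-base circle in Gm31466 at -0.05 with both. With a library left out, log2 fold changes ran from -0.60 to 0.72 and from -0.46 to 0.53 for these. The other ranges were -0.14 to 4.91 for the Dnah7a circle, -0.13 to 3.87 for the 12958-base circle in Gm45919, -0.05 to 0.30 for that in Gm272, -0.19 to 0.40 at Gm11520, -0.01 to 0.33 at A630010A05Rik, -0.25 to 0.49 for the 27468-base circle in Ankrd31 and -0.11 to 0.68 in Gramd1c. The cause was not tested. With 2 and 3 libraries and a median of 3 or 4 reads per listed circle, counting error limits the precision of single circles.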
